A study of Mus musculus with 24 samples.

Results

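The insulin-like growth factor binding protein (IGFBP) family was followed in mouse alveolar epithelial cells through 6 genes, Igfbp2, Igfbp3, Igfbp4, Igfbp5, Igfbp6, and Igfbp7. They were chosen by name, as the entries of the deposited count table that carry their Ensembl identifiers, out of 55421 mouse genes in that table. All 6 had counts, and all 6 were among the 18046 genes that passed the filter on low counts and were tested. Type 2 alveolar epithelial cells (AEC2s), the surfactant-producing progenitors of the alveolus, came from wild-type mice (Krt8+/+, labelled WT) and from mice without a functional keratin 8 gene in any cell (Krt8-/-, labelled KO). RNA was taken from the fresh cells (day 0) and from cells that had been in 2D culture for 1, 3, and 7 days, a setting in which AEC2s lose surfactant gene expression. No group received a drug or an injury, and the labels give neither strain, age, nor sex. The labels give 3 batches, each with 1 library per genotype and day, so that there were 24 libraries in 8 groups of 3.

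IGFBPs are secreted proteins. Most of them bind insulin-like growth factors with high affinity, carry them through blood and tissue, and set how much of the ligand reaches its receptor, while proteases cut the binding proteins and free the ligand. Several members also act without the ligand, through integrins, heparan sulfate, or extracellular matrix, and in lung, members of the family are made by epithelial, mesenchymal, and endothelial cells. Igfbp7 encodes a related protein with low affinity for the growth factors, found in basement membrane.

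The members share a cysteine-rich domain near the amino end, which takes part in ligand binding. The coding bases of a motif of that domain (GENCODE M21, GRCm38, 5′ to 3′) are shown because they mark what 4 of the members have in common, and capitals mark the codons for cysteine. A run of 8 codons that spells glycine, cysteine, glycine, cysteine, cysteine, any pair of residues, and cysteine was found in those 4.
Igfbp2: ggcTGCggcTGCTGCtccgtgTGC
Igfbp3: ggcTGCggcTGCTGCctgactTGC
Igfbp4: ggcTGCggtTGTTGCgccactTGC
Igfbp5: ggcTGTggcTGCTGCatgactTGC
These lie at chr1:72824778-72824801 on the plus strand (Igfbp2), chr11:7213566-7213589 on the minus strand (Igfbp3), chr11:99041650-99041673 on the plus strand (Igfbp4), and chr1:72873966-72873989 on the minus strand (Igfbp5), in coding sequence. The run was not found in the coding sequence of Igfbp6 or Igfbp7. The coding sequences held 305 (Igfbp2), 292 (Igfbp3), 254 (Igfbp4), 271 (Igfbp5), 238 (Igfbp6), and 282 (Igfbp7) codons before the stop, of which 16 to 20 were for cysteine. Coding sequence spanned 4 exons in each member other than Igfbp7, where it spanned 5.

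Igfbp2 (ENSMUSG00000039323, chr1:72824503-72852474, plus strand) and Igfbp5 (ENSMUSG00000026185, chr1:72857932-72874884, minus strand) lie end to end, with 5457 bases between them. Igfbp3 (ENSMUSG00000020427, chr11:7206086-7213923, minus strand) lies 3539 bases from Igfbp1, which had 1 count over all 24 libraries. Igfbp4 (ENSMUSG00000017493) is at chr11:99041244-99054392 on the plus strand and Igfbp7 (ENSMUSG00000036256) at chr5:77349240-77408041 on the minus strand. Igfbp6 (ENSMUSG00000023046, chr15:102144362-102149511, plus strand) is on the chromosome of the targeted gene, 139879 bases from Krt8.

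Depth lay between 10184439 and 19483386 counts per library. Levels are given as CPM, counts scaled to a common library size with edgeR's TMM factors, which were 0.746 to 0.808 on day 0 and 0.999 to 1.20 on later days. Krt8 stood at 484 to 5087 CPM in Krt8+/+ libraries and at 21.1 to 47.4 CPM in Krt8-/- libraries. The summed level of 5 AEC2 markers was 163934 to 235737 CPM on day 0 and 146 to 204 CPM on day 7, whereas of 4 epithelial markers Krt18 and Krt19 were higher and Epcam lower on day 7 in both genotypes, and Cdh1 did not pass 0.05. The 6 fibroblast markers summed to 293 to 978 CPM on day 0, 91.5 to 249 CPM after a day, 607 to 1727 CPM by day 3, and 796 to 2975 CPM by day 7, with none of the 6 at 0 counts in 12 or more of the 24 libraries. The list did not move as 1: on day 7 against day 0, 2 were called higher and 3 lower in Krt8+/+ cells, and 2 higher and 2 lower in Krt8-/- cells. Ddx3y, a Y-linked gene, was counted at 0 to 6 in the Krt8+/+ libraries of batches 1 and 2 and in the Krt8-/- libraries of batch 2, and at 635 to 1400 in the others, so that the genotypes differed in it within batch 1. Xist, an X-linked gene, was counted at 394 to 1848 where Ddx3y was 0 to 6, and at 0 to 29 in batch 3. The Krt8-/- libraries of batch 1 held both, with Xist at 66 to 209 and Ddx3y at 798 to 1255. Whether they mix animals of both sexes was not tested.

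In Krt8+/+ cells, 5 of the 6 members had an adjusted p below 0.05 on day 1 against day 0 (1 higher, 4 lower), where 54.7% of all tested genes did (26.2% higher, 28.5% lower). The count for day 3 was 5 of 6 (2 higher, 3 lower), beside 54% of all genes (26.1% higher, 27.8% lower), and for day 7 it was all 6 (3 higher, 3 lower), beside 58.8% (28.6% higher, 30.2% lower). Krt8-/- cells had 6 members called at day 1 (1 higher, 5 lower), beside 50.6% of all genes (23.7% higher, 26.9% lower). They had 5 at day 3 (2 higher, 3 lower), beside 52% (25.4% higher, 26.6% lower), and 6 at day 7 (3 higher, 3 lower), beside 58.5% (28.6% higher, 29.9% lower). The groups did not overlap for 55.5%, 61.9%, and 65.6% of all genes on days 1, 3, and 7 against day 0 in Krt8+/+ cells and for 56.1%, 61.1%, and 65% in Krt8-/- cells. The median log2 difference over the members was -1.30, -0.38, and 0.22 on days 1, 3, and 7 in Krt8+/+ cells, beside 0, -0.0015, and 0 over all tested genes. For Krt8-/- cells it was -1.43, -0.52, and 0.34, beside -0.01, -0.01, and 0.0024. The 3 comparisons of a genotype share its day 0 libraries. In these bulk libraries a loss of cells of a type cannot be told apart from less RNA of a gene per cell. The members did not move as a block, and each is described in turn.

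**Figure D1:**
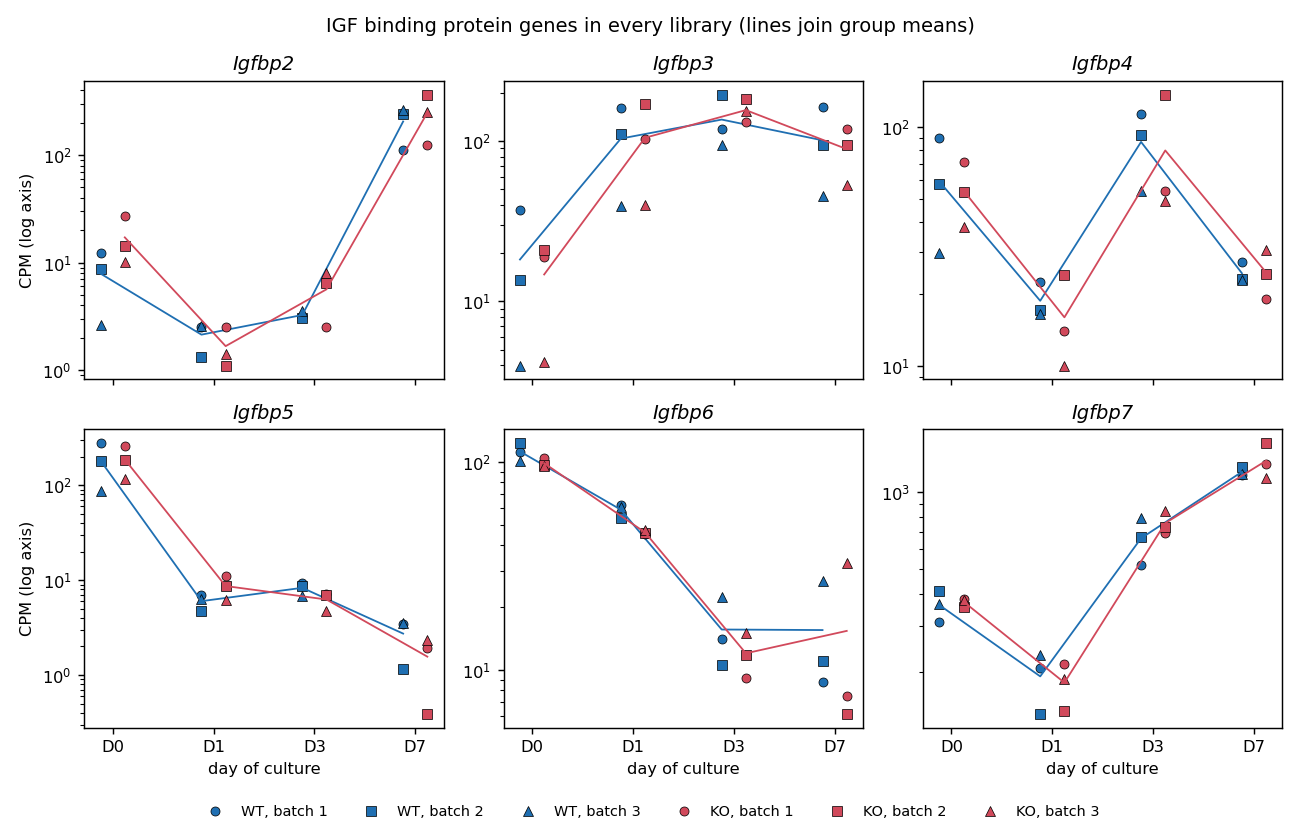
CPM (log axis) of the 6 members in each of the 24 libraries by day of culture, with Krt8+/+ (WT) in blue, Krt8-/- (KO) in red, a symbol for each batch, and lines through the group means. Igfbp2 fell and then rose to between 111 and 366 CPM on day 7, Igfbp5 fell on day 1 to 11.1 CPM or less and stayed there, and Igfbp7 dipped on day 1 and was highest on day 7.

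Igfbp2 encodes a binding protein that also carries an integrin-binding sequence. In fresh Krt8+/+ AEC2s it stood at 12.3, 8.77, and 2.65 CPM in batches 1, 2, and 3. On day 1 it was 2.49, 1.34, and 2.58 CPM, and on day 3 it was 3.15, 3.04, and 3.57 CPM. On day 7 it reached 111, 240.2, and 265 CPM, and no library of another day came near that range. In Krt8-/- cells it stood at 27.0, 14.3, and 10.2 CPM on day 0, 2.51, 1.10, and 1.40 on day 1, 2.53, 6.44, and 7.95 on day 3, and 125, 366, and 253 on day 7. The course had the same shape in both genotypes, a low at day 1 and a late rise between days 3 and 7. On day 7 against day 0 the level was 25.4-fold higher in Krt8+/+ cells (log2 4.67, SE 0.54, adjusted p = 3.22e-07) and 14.4-fold higher in Krt8-/- cells (log2 3.85, SE 0.51, adjusted p = 2.03e-06). The rise came after day 3, with log2 differences of 5.97 (SE 0.58, adjusted p = 4.94e-06) and 5.46 (SE 0.56, adjusted p = 3.42e-06) between days 7 and 3. Of 5 pericyte and smooth muscle markers, 4 were tested and all 4 were higher on day 7 in both genotypes, and the list summed to 338 to 890.4 CPM against 4.76 to 21.6 on day 0. In Krt8+/+ cells most of the day 7 sum (mean 541 CPM) was Cnn1, at a mean of 379 CPM against 1.01 on day 0. Rgs5, the marker not tested, went from a mean of 0.635 to 0.106 CPM in Krt8+/+ cells. Of the 3 mesothelial markers, Msln was higher (log2 5.38 and 4.76), Upk3b lower (log2 -5.47 and -6.13), and Wt1 lower in Krt8+/+ cells (log2 -1.93), so that the higher summed level on day 7, 874 to 2448 CPM against 48.3 to 165, came from Msln alone. Of 6 markers of type 1 alveolar epithelial cells (AEC1s), 4 were called higher and 1 lower on day 7 against day 0 in Krt8+/+ cells. Krt8-/- cells had 4 higher and 2 lower. Their summed level was lower on day 7, at 1314 to 2369 CPM against 2385 to 2991 on day 0 in Krt8+/+ cells. In Krt8-/- cells it was 1338 to 1893 CPM against 3195 to 3534, and these sums were not tested. Between days 3 and 7, when Igfbp2 rose, 0 were called higher and 1 lower in Krt8+/+ cells, and 1 higher and 2 lower in Krt8-/- cells. The paper takes Igfbp2 as a mark of the mature AEC1 state, and found no significant difference between the genotypes in reaching it in culture. By immunostaining on day 7 it saw some AEC1s, with many cells in a state between AEC2 and AEC1. The part of any of these cell types in the Igfbp2 level was not tested. The fall on day 1 was 3.73-fold in Krt8+/+ cells (adjusted p = 0.00783) and 10.5-fold in Krt8-/- cells (adjusted p = 6.62e-05). The fall in Krt8+/+ cells rested on batches 1 and 2, since batch 3 had 2.65 CPM on day 0 and 2.58 on day 1, and without batch 2 the adjusted p was 0.133. The fall on day 3 in Krt8+/+ cells (log2 -1.31, adjusted p = 0.0444) was likewise lost without batch 1 (adjusted p = 0.168), without batch 2 (adjusted p = 0.244), and with batch as a block (adjusted p = 0.0526). That on day 3 in Krt8-/- cells (log2 -1.61, adjusted p = 0.0110) was lost without batch 1 (adjusted p = 0.143) and without batch 2 (adjusted p = 0.0634).

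Igfbp5 encodes the most conserved binding protein of the family, which also attaches to matrix. It was the member that fell the most. Fresh Krt8+/+ AEC2s had 279, 178, and 87.1 CPM, and fresh Krt8-/- AEC2s had 258, 187, and 117 CPM. On day 1 the levels were 7.04, 4.68, and 6.31 CPM in Krt8+/+ cells and 11.1, 8.68, and 6.22 CPM in Krt8-/- cells. On day 7 they were 3.47, 1.16, and 3.58 CPM and 1.94, 0.389, and 2.36 CPM, the last group resting on 76 counts in all. Day 0 did not overlap any later day in either genotype. The level on day 1 was 30.1-fold lower than on day 0 in Krt8+/+ cells (log2 -4.91, SE 0.48, adjusted p = 5.26e-08) and 21.6-fold lower in Krt8-/- cells (log2 -4.44, SE 0.46, adjusted p = 1.52e-07). By day 7 it was 65.2-fold lower (log2 -6.03, SE 0.51, adjusted p = 4.65e-09) and 116-fold lower (log2 -6.85, SE 0.54, adjusted p = 1.56e-09). These calls against day 0, like those on day 3 (log2 -4.45 and -4.90), were kept without each batch in turn. Of the 6 fibroblast markers, 4 were lower on day 1 in each genotype, while 2 were higher and 1 lower on day 3, and their part in the Igfbp5 level was not tested. The further fall between days 3 and 7 (log2 -1.57, adjusted p = 0.0464 in Krt8+/+ cells; log2 -1.95, adjusted p = 0.0133 in Krt8-/- cells) was lost in Krt8+/+ cells without batch 1, 2, or 3 (adjusted p = 0.197, 0.365, and 0.0576) and in Krt8-/- cells without batch 1 or 2 (adjusted p = 0.101 and 0.162).

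The neighbours Igfbp2 and Igfbp5 thus moved apart in culture. The ratio of Igfbp2 CPM to Igfbp5 CPM was 0.0305 to 0.0492 in the fresh Krt8+/+ libraries and 0.0764 to 0.105 in the fresh Krt8-/- libraries. On day 7 it was 31.9, 207, and 74.2 in Krt8+/+ cells and 64.6, 940, and 107 in Krt8-/- cells, and every library of day 7 lay above every library of the other days. The 250 bases before the RefSeq start (GRCm38.p6) of both genes, and of Igfbp7, which like Igfbp2 was highest on day 7, are printed 5′ to 3′ on the strand of the gene, because these 3 genes include the member that fell the most and the pair that were highest on day 7. Capitals mark GC boxes, GGGCGG on either strand.
Igfbp2: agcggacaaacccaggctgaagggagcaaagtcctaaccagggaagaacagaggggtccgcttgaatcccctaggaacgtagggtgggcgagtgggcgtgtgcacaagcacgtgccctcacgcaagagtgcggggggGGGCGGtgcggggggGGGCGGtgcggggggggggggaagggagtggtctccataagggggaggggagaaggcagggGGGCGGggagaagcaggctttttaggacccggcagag
Igfbp5: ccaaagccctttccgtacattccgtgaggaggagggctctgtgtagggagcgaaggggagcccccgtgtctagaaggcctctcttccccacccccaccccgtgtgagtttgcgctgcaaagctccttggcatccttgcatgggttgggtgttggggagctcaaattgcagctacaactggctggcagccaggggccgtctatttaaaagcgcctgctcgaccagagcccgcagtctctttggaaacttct
Igfbp7: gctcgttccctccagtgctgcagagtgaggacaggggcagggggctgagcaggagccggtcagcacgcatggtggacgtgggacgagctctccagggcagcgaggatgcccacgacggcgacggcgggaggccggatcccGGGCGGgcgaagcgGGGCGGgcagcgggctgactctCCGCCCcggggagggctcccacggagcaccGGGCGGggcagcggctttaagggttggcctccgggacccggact
The windows are chr1:72824230-72824479 on the plus strand (the first of 2 RefSeq starts of Igfbp2), chr1:72874866-72875115 on the minus strand, and chr5:77408046-77408295 on the minus strand. The Igfbp2 window held 3 GC boxes, the Igfbp7 window 4, and the windows of Igfbp3, Igfbp4, Igfbp5, and Igfbp6 none, while 32.9% of 27025 promoters of the same length held at least 1. GC content was 67.2% for Igfbp2, 58.8% for Igfbp5, and 74.0% for Igfbp7, beside a median of 52.0% over all these promoters. A TEAD site (GGAATG, either strand) was found in the Igfbp5 window, as in 12.6% of promoters, and an AP-1 site (TGANTCA, either strand) in none of the 6, as against 6.87% of promoters. The letters TATAAA, searched on either strand, were found in the window of Igfbp4 on the strand of the gene and in that of Igfbp6 on the opposite strand (13.0% of promoters), and CACGTG in that of Igfbp2 (6.05% of promoters). These are matches of letters and no record of binding.

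Igfbp3 encodes the main carrier of insulin-like growth factors in blood. It was higher on every day of culture than in fresh cells. Krt8+/+ libraries had 37.3, 13.5, and 3.98 CPM on day 0, 161, 111, and 39.2 on day 1, 119, 195, and 94.4 on day 3, and 163, 94.5, and 45.7 on day 7. Krt8-/- libraries had 18.98, 21.0, and 4.17 CPM on day 0, 103, 171, and 40.0 on day 1, 132, 182, and 153 on day 3, and 119.7, 94.6, and 53.1 on day 7. Batch 3 was the lowest on days 0, 1, and 7 in both genotypes, yet the lowest cultured library (39.2 CPM) was still above the highest fresh one (37.3 CPM). The rise was 5.55-fold by day 1 (log2 2.47, SE 0.70, adjusted p = 0.00565), 7.29-fold on day 3 (log2 2.87, SE 0.71, adjusted p = 0.00193), and 5.41-fold on day 7 (log2 2.44, SE 0.70, adjusted p = 0.00534) in Krt8+/+ cells. Without Krt8 the rise was 7.16-fold, 10.6-fold, and 6.08-fold (adjusted p = 0.00256, 0.000556, and 0.00363). Among the days of culture, no test of Igfbp3 passed 0.05 (day 3 against day 1 and day 7 against day 3, adjusted p = 0.519 to 0.801 over both genotypes). In Krt8+/+ cells, leaving out batch 2 raised the adjusted p to 0.0788, 0.0646, and 0.0624 on days 1, 3, and 7, with log2 differences of 2.32 to 2.44, and in Krt8-/- cells to 0.0532 on day 1.

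Igfbp4 encodes a binding protein that is cut by the protease pappalysin-1, and it followed a path of its own. It stood at 90.1, 57.6, and 29.8 CPM in fresh Krt8+/+ AEC2s, at 22.5, 17.1, and 16.6 on day 1, at 113, 92.4, and 54.1 on day 3, and at 27.3, 23.1, and 22.9 on day 7. Krt8-/- cells had 71.0, 53.2, and 38.3 CPM on day 0, 14.0, 23.9, and 10.03 on day 1, 53.8, 137, and 48.9 on day 3, and 19.02, 24.2, and 30.7 on day 7. Days 1 and 7 were low and days 0 and 3 were high, and within a genotype no library of day 1 or 7 reached those of day 0. Of the 6 fibroblast markers, 2 were higher and 1 lower on day 3 against day 0 in each genotype, and on day 7 there were 2 higher and 3 lower in Krt8+/+ and 2 higher and 2 lower in Krt8-/- cells, Col1a1 and Col1a2 being the higher ones. Their part in the Igfbp4 level was not tested. The fall on day 1 was 3.17-fold in Krt8+/+ cells (log2 -1.66, SE 0.42, adjusted p = 0.00226) and 3.38-fold in Krt8-/- cells (log2 -1.76, SE 0.42, adjusted p = 0.00166). Between days 1 and 3 the level rose by log2 2.21 (SE 0.42, adjusted p = 0.000713) and 2.32 (SE 0.43, adjusted p = 0.000549), and these calls were kept without each batch. Day 3 did not pass 0.05 against day 0 in either genotype (log2 0.55, 95% interval -0.29 to 1.39, and log2 0.56, 95% interval -0.28 to 1.40), except with scaling by library totals alone (adjusted p = 0.0252 and 0.0292). The level on day 7 was 2.43-fold lower than on day 0 in Krt8+/+ cells (adjusted p = 0.0114) and 2.20-fold lower in Krt8-/- cells (adjusted p = 0.0223). Both of these calls were lost without batch 1 (adjusted p = 0.142 and 0.236), without batch 2 (adjusted p = 0.0581 and 0.0820), and with library totals (adjusted p = 0.0901 and 0.151). The fall between days 3 and 7 (log2 -1.82 and -1.70, adjusted p = 0.00922 and 0.0104) was lost without batch 1 (adjusted p = 0.109 and 0.0678) or 2 (adjusted p = 0.101 and 0.250).

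Igfbp6 encodes the member with a preference for insulin-like growth factor 2. It declined in steps. Krt8+/+ libraries had 112, 124, and 102 CPM on day 0, 62.4, 53.8, and 61.0 on day 1, 14.1, 10.6, and 22.3 on day 3, and 8.77, 11.1, and 26.8 on day 7. Krt8-/- libraries had 104, 96.5, and 95.4 CPM on day 0, 45.1, 45.7, and 46.9 on day 1, 9.18, 11.9, and 15.1 on day 3, and 7.48, 6.15, and 32.6 on day 7. Days 0, 1, and 3 did not overlap, and on day 7 batch 3 stood above the other batches in both genotypes. In the same 2 libraries the fibroblast markers summed to 1803 and 2975 CPM, beside 796 to 951 CPM in the other day 7 libraries. Of that list only Col1a1 and Col1a2 were called higher on day 7 than on day 0. The part of fibroblasts in the Igfbp6 level was not tested. The difference on day 1 did not pass 0.05 in Krt8+/+ cells (log2 -0.93, SE 0.44, adjusted p = 0.0813) but did with batch as a block (adjusted p = 0.0327), without a filter on low counts (adjusted p = 0.0463), and with the compared groups alone (adjusted p = 0.00258). In Krt8-/- cells it passed (log2 -1.11, SE 0.44, adjusted p = 0.0436), and was lost without batch 1 (adjusted p = 0.161), without batch 2 (adjusted p = 0.169), with DESeq2's size factors (adjusted p = 0.0508), and with library totals (adjusted p = 0.256). The fall by day 3 was 7.17-fold (log2 -2.84, SE 0.47, adjusted p = 3.70e-05) and 8.21-fold (log2 -3.04, SE 0.48, adjusted p = 2.16e-05), and by day 7 it was 7.21-fold (adjusted p = 2.99e-05) and 6.39-fold (adjusted p = 5.65e-05). Between days 1 and 3 the level fell by log2 -1.91 and -1.93 (adjusted p = 0.00435 and 0.00486), which was lost without batch 1 (adjusted p = 0.0529 and 0.0729) and, in Krt8+/+ cells, without batch 2 (adjusted p = 0.0591). Between days 3 and 7 no further change was called (log2 -0.0073, 95% interval -0.95 to 0.94, and log2 0.36, 95% interval -0.59 to 1.32).

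Igfbp7, the low-affinity member, had the smallest standard errors of the family. Krt8+/+ libraries had 312, 412, and 366 CPM on day 0, 207, 137, and 232 on day 1, 521, 669, and 792 on day 3, and 1166, 1253, and 1173 on day 7. Krt8-/- libraries had 384, 359, and 381 CPM on day 0, 215, 141, and 188 on day 1, 693, 731, and 846 on day 3, and 1279.8, 1550.3, and 1136 on day 7. In both genotypes day 1 lay below day 0, day 3 above it, and day 7 above day 3, with no overlap between any pair of days. Endothelium also expresses Igfbp7, and the 6 endothelial markers summed to 18.0 to 33.2 CPM on day 0 and 1.49 to 4.14 CPM on day 7. The 4 tested pericyte and smooth muscle markers were higher on day 7, with the values and the limits given beside Igfbp2. The part of either cell type in the Igfbp7 level was not tested. The level fell 1.89-fold on day 1 (log2 -0.92, SE 0.19, adjusted p = 0.000442) and was 1.82-fold higher on day 3 (log2 0.86, SE 0.19, adjusted p = 0.000718) and 3.30-fold higher on day 7 (log2 1.72, SE 0.20, adjusted p = 2.43e-07) in Krt8+/+ cells. In Krt8-/- cells it fell 2.07-fold (adjusted p = 0.000139) and was then 2.02-fold (adjusted p = 0.000163) and 3.53-fold (adjusted p = 1.17e-07) higher. All of these calls against day 0 were kept without each batch. The last step, from day 3 to day 7 (log2 0.86, SE 0.19, adjusted p = 0.00776, and log2 0.81, SE 0.19, adjusted p = 0.00842), was lost without batch 1 (adjusted p = 0.163 and 0.106) or 2 (adjusted p = 0.0567 and 0.0782).

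Set against neighbouring days, 3 members were called between days 1 and 3 in Krt8+/+ cells (2 higher, Igfbp4 and Igfbp7, and 1 lower, Igfbp6), where 26.3% of all genes were called (14.4% higher, 11.9% lower). Without Krt8 it was 4 (3 higher, 1 lower), beside 23.6% (13.4% higher, 10.2% lower), with Igfbp2 added (log2 1.79, adjusted p = 0.0341). The Igfbp2 call was lost without batch 2 (adjusted p = 0.280) or 3 (adjusted p = 0.229). Between days 3 and 7, 4 members were called in each genotype, Igfbp2 and Igfbp7 higher and Igfbp4 and Igfbp5 lower, beside 6.58% of all genes in Krt8+/+ (3.11% higher, 3.47% lower) and 10.5% in Krt8-/- cells (4.4% higher, 6.15% lower). Groups of neighbouring days did not overlap for 36.2% and 28.5% of all genes in Krt8+/+ and 39.8% and 31.9% in Krt8-/- cells. Between days 3 and 7, only 1 member stayed called in each genotype without batch 1 or without batch 2, and that was Igfbp2.

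To compare levels between genes, CPM was divided by the length of the exons of each gene in kilobases (kb). On this scale Igfbp7 led in all 8 groups, with no overlap with the next member, and held 62.7% to 68.1% of the summed level of the family on days 0 and 1 and 85.8% to 88.3% on days 3 and 7 (group means). On day 0 Igfbp6 came next, with 22.2% ± 0.459 (SD, n = 3) of the summed level in Krt8+/+ and 19.5% ± 0.332 (SD, n = 3) in Krt8-/- cells, followed by Igfbp5 with 6.61% ± 3.55 (SD, n = 3) and 6.76% ± 2.14 (SD, n = 3). In Krt8+/+ cells on day 0, Igfbp5, Igfbp4, Igfbp3, and Igfbp2 each overlapped the next in that order. On day 1 Igfbp6 and Igfbp3 followed Igfbp7 and overlapped each other, Igfbp3 holding 13.4% ± 7.51 (SD, n = 3) and 14.5% ± 9.59 (SD, n = 3). On day 3 Igfbp3 was next to Igfbp7, with 7.08% ± 2.72 (SD, n = 3) and 7.05% ± 1.03 (SD, n = 3). On day 7 that place was held by Igfbp2, with 9.54% ± 3.60 (SD, n = 3) and 10.3% ± 3.95 (SD, n = 3), and Igfbp5, last in the order, held 0.0401% and 0.0222%. The summed level of the 6 members was 455 ± 43.8 CPM per kb (SD, n = 3) in fresh Krt8+/+ cells, and 251 ± 43.4, 627 ± 107, and 1154 ± 60.8 at days 1, 3, and 7. For Krt8-/- cells it was 456 ± 30.9, 231 ± 23.6, 709 ± 69.6, and 1276 ± 214 CPM per kb.

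**Figure D2:**
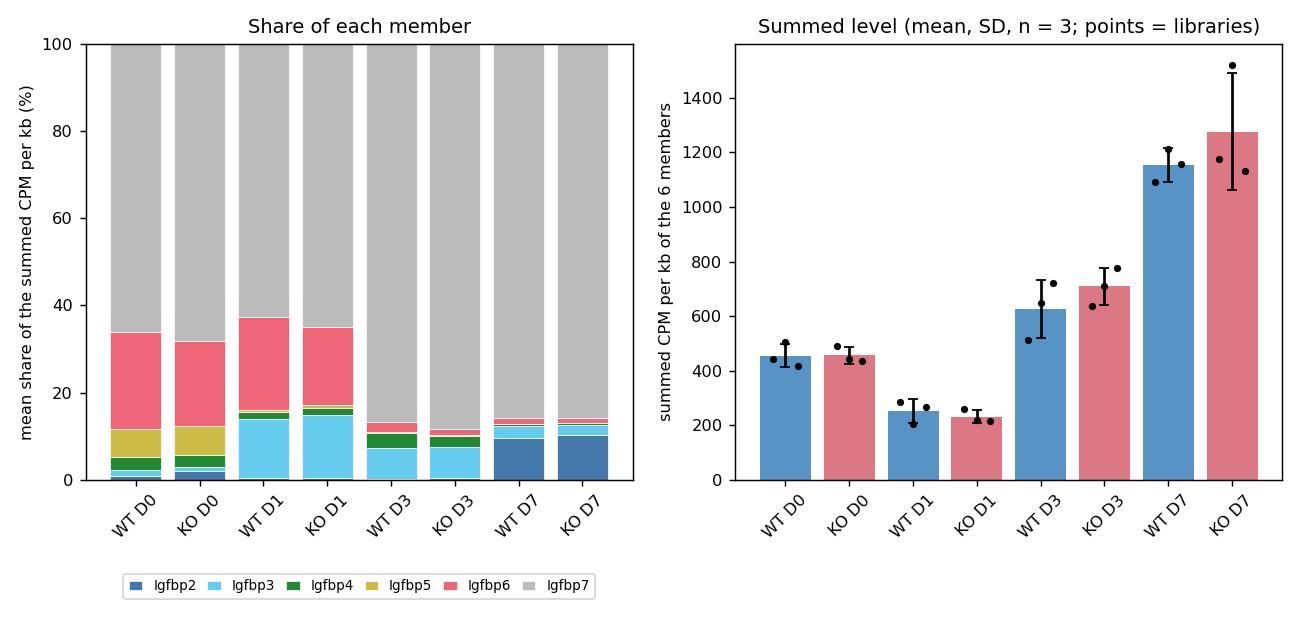
Left, mean share (%) of each member in the summed CPM per kb of the 6 members in the 8 groups of genotype and day. Right, the summed level, with bars for the mean, error bars for the SD (n = 3), and points for libraries; Igfbp7 fills 62.7% to 88.3% of each group, and the sum is lowest on day 1 and highest on day 7.

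Whether loss of keratin 8 altered the family was asked on each day. No member passed 0.05 between Krt8-/- and Krt8+/+ cells on day 0 (all genes, 0.0277%), day 1 (0.0166%), day 3 (0.0166%), or day 7 (0.0166%) in edgeR's test, and DESeq2 called none either. At an unadjusted p below 0.05 there was 1 member on day 0 (all genes, 2.65%) and none on day 1 (3.54%), day 3 (2.5%), or day 7 (1.41%). That member was Igfbp2 on day 0, where the 3 Krt8-/- libraries (10.2 to 27.0 CPM) overlapped the Krt8+/+ libraries (2.65 to 12.3 CPM) but were higher within each of the 3 batches (log2 1.09, SE 0.50, 95% interval 0.06 to 2.13, edgeR adjusted p = 1). The adjusted p was 1 after rounding under each of the 9 alternatives tried for that difference. In the same fresh libraries the 3 club and ciliated markers summed to 11731 to 17006 CPM in Krt8-/- against 4140 to 9658 CPM in Krt8+/+ cells, and the 6 AEC1 markers to 3195 to 3534 against 2385 to 2991 CPM, with no marker at 0 in 12 or more libraries. The sums were not tested, and no single marker of either list passed 0.05 between genotypes on day 0. At an unadjusted p below 0.05 in edgeR's test there were 2 of the 3 and 3 of the 6. The part of these cells in the Igfbp2 difference was not tested. On day 1 the Igfbp6 libraries did not overlap between genotypes (45.1 to 46.9 against 53.8 to 62.4 CPM, log2 -0.36, 95% interval -1.28 to 0.56), and it was the only member and day of which this held. The groups of 5.79% of all genes did not overlap on that day, beside 6.88% on day 0, 11% for day 3, and 5.54% for day 7. Igfbp7 had the narrowest intervals, and its difference between genotypes lay within -0.35 to 0.44 (log2) on day 0 and within -0.48 to 0.32, -0.20 to 0.59, and -0.25 to 0.54 on the later days. For Igfbp3 the intervals reached from -1.80 to 1.56 (log2) over the 4 days. Igfbp5 was lower in Krt8-/- cells in all 3 batches on days 3 and 7 (log2 -0.40, 95% interval -1.31 to 0.50, and log2 -0.78, 95% interval -1.88 to 0.31), without passing the test. Igfbp6 was likewise lower in all 3 batches on days 0 and 1, and Igfbp7 higher in all 3 on day 3. With Igfbp2 on day 0, these were the only members and days on which the batches agreed in direction. The share of all genes with such agreement was not computed. The genotype difference did not vary by day beyond the spread for any member (edgeR interaction test with 3 degrees of freedom, adjusted p = 1 for all 6), where 1 gene, or 0.00554% of those tested, was called.

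**Figure D3:**
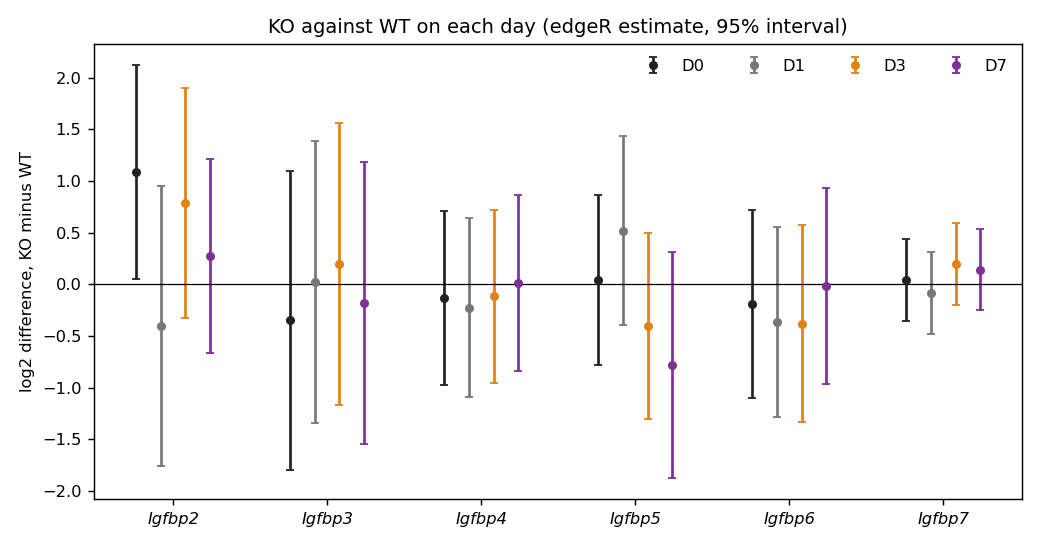
Log2 difference of Krt8-/- minus Krt8+/+ cells for each member on days 0, 1, 3, and 7, with points for edgeR's estimates and bars for 95% intervals. All intervals span 0 apart from Igfbp2 on day 0 (0.06 to 2.13), which does not pass after adjustment.

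Fresh cells differed by batch in a way that touched only part of the family. On day 0, Igfbp2, Igfbp4, and Igfbp5 followed the order of batch 1 above 2 above 3 in both genotypes, and Igfbp3 did so in Krt8+/+ cells and had batch 3 lowest in Krt8-/- cells. Batch 1 stood above batch 3 by 4.62 times (Igfbp2), 9.37 times (Igfbp3), 3.03 times (Igfbp4), and 3.20 times (Igfbp5) in Krt8+/+ cells, and by 2.65, 4.55, 1.86, and 2.19 times in Krt8-/- cells. For Igfbp6 these ratios were 1.10 and 1.095, and for Igfbp7 0.851 and 1.01. The summed fibroblast markers had the same order, at 978, 499, and 293 CPM in Krt8+/+ and 719, 559, and 328 CPM in Krt8-/- cells. So had the sums of the 3 mesothelial markers (158, 91.3, and 48.3 CPM, and 165, 116, and 77.1 CPM), the 5 pericyte and smooth muscle markers (20.9, 10.5, and 4.76 CPM, and 21.6, 10.9, and 5.94 CPM), and the 5 macrophage markers (35.3, 19.2, and 10.2 CPM, and 28.2, 13.5, and 4.01 CPM). The 4 epithelial markers summed to 1856 to 2120 CPM, and the 6 endothelial markers, of which Cldn5 and Emcn had 0 counts in 12 or more libraries, ran from 18.0 to 33.2 CPM. The AEC2 markers were highest in batch 3, with sums of 163934, 217134, and 230529 CPM in Krt8+/+ and 187683, 185417, and 235737 CPM in Krt8-/- cells. The 3 lymphocyte markers summed to 6.47 CPM at most, with Cd3e and Nkg7 at 0 in 12 or more libraries. The part of these cells in the day 0 levels of Igfbp2, Igfbp3, Igfbp4, and Igfbp5 was not tested. Ddx3y had 1, 0, and 635 counts in batches 1, 2, and 3 of fresh Krt8+/+ cells, where batch 3 cannot be told apart from sex. Fresh Krt8-/- cells had 1181, 0, and 823 counts of it.

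**Figure D4:**
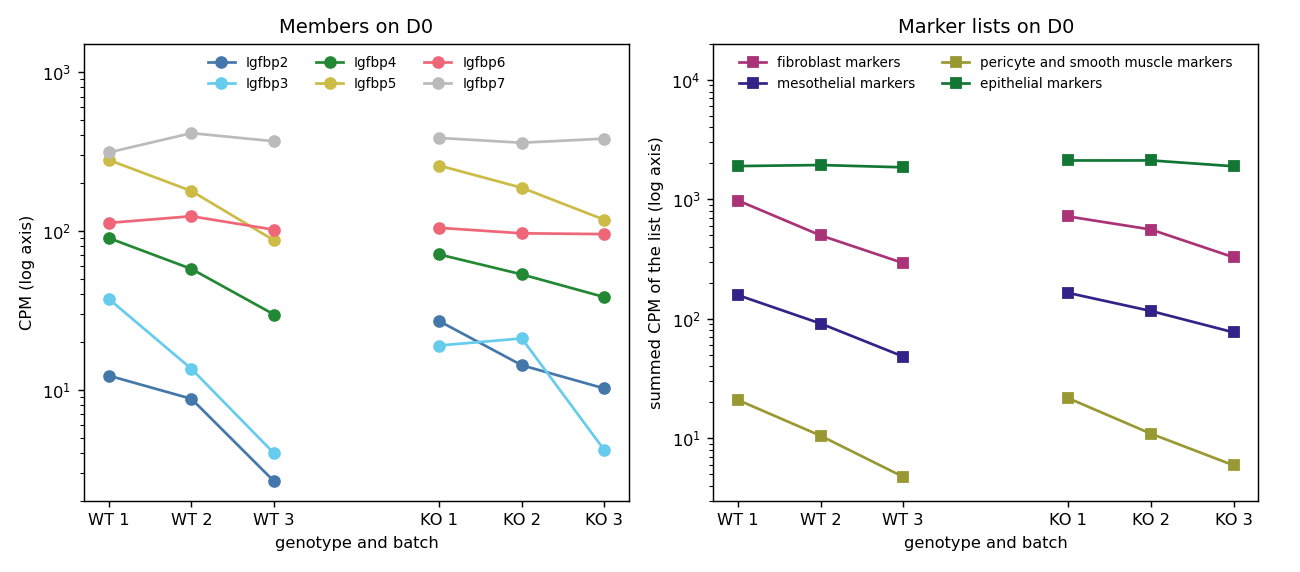
Left, CPM (log axis) of the 6 members in the fresh (day 0) libraries of batches 1, 2, and 3 of each genotype. Right, summed CPM (log axis) of 4 marker lists in the same libraries; Igfbp2, Igfbp4, and Igfbp5 and the fibroblast, mesothelial, and pericyte and smooth muscle lists are highest in batch 1 and lowest in batch 3 in both genotypes, while the epithelial list stays between 1856 and 2120 CPM.

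The other genes of the pathway were taken from a list of 26, of which 21 passed the filter on low counts. Against fresh Krt8+/+ cells, day 1 had 7 of them higher and 5 lower, day 3 had 10 and 6, and day 7 had 12 and 8. These were 57.1%, 76.2%, and 95.2% of the 21, beside 54.7%, 54%, and 58.8% of all tested genes. The counts in Krt8-/- cells were 6 and 5, 9 and 6, and 12 and 8, or 52.4%, 71.4%, and 95.2%, beside 50.6%, 52%, and 58.5% of all genes. None passed 0.05 between genotypes on any day. At an unadjusted p below 0.05 there were Adam28 on day 0 (log2 0.93; all genes, 2.65%) and Irs1 on day 1 (log2 -1.06; all genes, 3.54%), both with an edgeR adjusted p of 1.

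Of the ligands, Igf1 stood at 4.83, 3.57, and 0.664 CPM in fresh Krt8+/+ cells and at 61.6, 37.7, and 26.5 CPM on day 3. The groups did not overlap, and the rise was log2 3.74 (adjusted p = 6.46e-05), with log2 3.34 in Krt8-/- cells (adjusted p = 0.000197). Igf2 rose on day 1 in Krt8+/+ cells, from 2.22, 1.41, and 2.32 CPM to 10.5, 6.68, and 14.3 CPM (log2 2.39, adjusted p = 0.00325). By day 7 it had fallen to under 1 CPM in every library of both genotypes (log2 -2.14 and -3.71 against day 0, adjusted p = 0.0133 and 0.000378). The receptors moved in opposite directions. Igf1r, the signalling receptor for both ligands, rose from 10.5, 10.1, and 4.76 CPM on day 0 to 81.1, 79.2, and 60.5 CPM on day 7 in Krt8+/+ cells (log2 3.11, adjusted p = 9.37e-09) and by log2 2.81 in Krt8-/- cells (adjusted p = 2.82e-08). Insr, the insulin receptor, fell from 44.98, 32.7, and 32.8 CPM to 13.3, 9.61, and 8.41 CPM (log2 -1.82, adjusted p = 4.85e-07), with log2 -1.76 in Krt8-/- cells (adjusted p = 7.04e-07). Igf2r, which clears insulin-like growth factor 2, differed less on day 7 (log2 0.66 and 1.07, adjusted p = 0.0291 and 0.00114).

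Behind the receptors, Irs1 and Irs2, the docking proteins that pass the signal on, fell by log2 -1.90 and -2.27 on day 7 in Krt8+/+ cells (adjusted p = 0.00144 and 6.66e-06) and by log2 -2.47 and -2.02 in Krt8-/- cells (adjusted p = 0.000145 and 2.50e-05). Of the receptor-binding adaptors that dampen signalling, Grb14 fell (log2 -2.42 and -1.85, adjusted p = 6.16e-07 and 1.44e-05) and Grb10 rose (log2 1.71 and 1.87, adjusted p = 0.00137 and 0.000645). Shc1 did not pass 0.05 on day 7 (log2 -0.14 in both, adjusted p = 0.474 and 0.488). Of the proteases known to cut IGFBPs, Adam12 went from a mean of 0.143 CPM in fresh Krt8+/+ cells to 24.3 CPM on day 1 and 112 CPM on day 7 (log2 9.26, adjusted p = 1.30e-11). Adam9 and Htra1 rose by log2 1.95 and 1.90 (adjusted p = 4.78e-08 and 3.28e-05) and Pappa by log2 4.01 (adjusted p = 0.00327), to a mean of 8.19 CPM. The fresh Krt8+/+ libraries held 6 counts of Adam12 and 18 of Pappa in all. Adam28 fell (log2 -1.05, adjusted p = 0.0277). Stc1 and Stc2, which encode inhibitors of pappalysin, rose on day 7 by log2 1.79 and 5.64 (adjusted p = 0.00311 and 1.46e-07). Igfals, whose product joins Igfbp3 or Igfbp5 and ligand in a ternary complex, fell from 6.03, 5.19, and 4.76 CPM to 0.136, 0.249, and 0 CPM, or 5 counts in all (log2 -5.35, adjusted p = 9.18e-05). Of related genes with an IGFBP-like domain, Crim1 rose by log2 2.94 (adjusted p = 2.90e-07) and Kazald1 by log2 1.26 (adjusted p = 0.0348). Without Krt8, each gene named in this paragraph was on the same side of 0 on day 7.

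**Figure D5:**
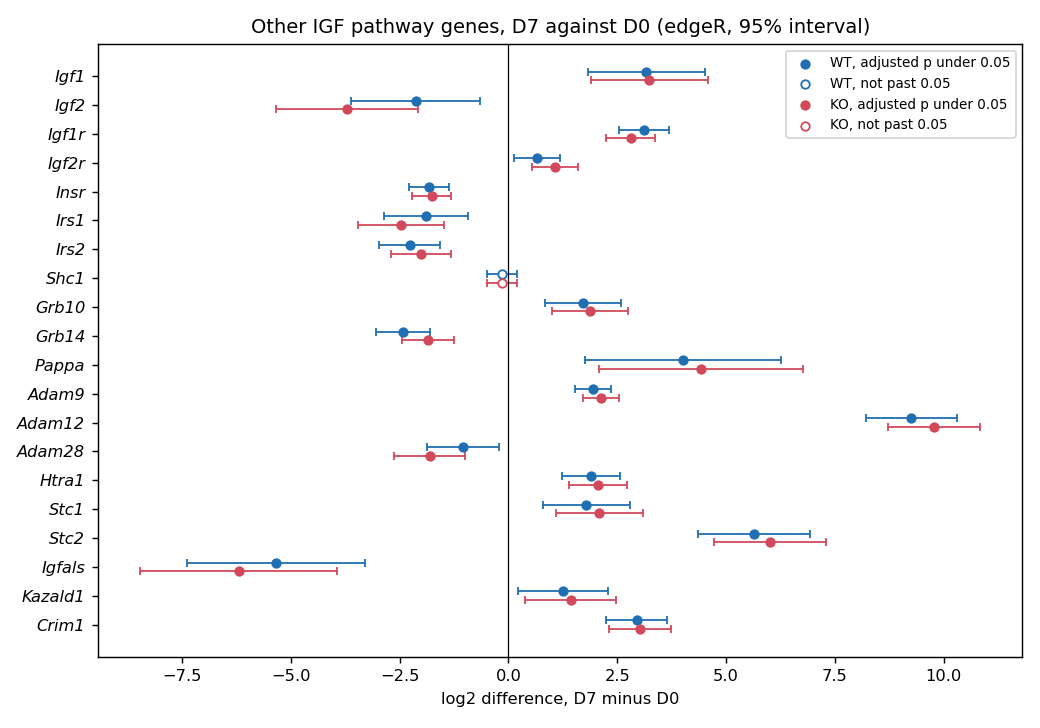
Log2 difference of day 7 minus day 0 for 20 of the 21 tested genes of the pathway list, with Krt8+/+ (WT) in blue, Krt8-/- (KO) in red, filled points where edgeR's adjusted p is under 0.05, and bars for 95% intervals; Esm1 is left out because it had 0 counts in the WT day 7 libraries. Adam12 and Stc2 lie farthest to the right, Igfals farthest to the left, and Shc1 alone does not pass in either genotype.

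Across the 24 libraries, log2 CPM of Igfbp5 and Igfbp6 (Pearson's r = 0.79) and of Igfbp2 and Igfbp7 (r = 0.79) ran most alike among the members. The strongest opposite courses were those of Igfbp3 and Igfbp6 (r = -0.71), Igfbp6 and Igfbp7 (r = -0.71), and Igfbp3 and Igfbp5 (r = -0.69). These libraries share batches and days, and the coefficients describe the time course. Among all tested genes, the 3 with the course most like each member were Spock2, Gpc4, and Bex3 for Igfbp2 (r = 0.96, 0.95, and 0.94), Arhgef3, Slc9a2, and Gcnt2 for Igfbp3 (r = 0.97, 0.96, and 0.95), and Ncapd3, B4galt1, and Nid2 for Igfbp4 (r = 0.88, 0.85, and 0.84). They were Idh2, Trim62, and Gpr146 for Igfbp5 (r = 0.97 for each), Tlr4, Klhl29, and Cst3 for Igfbp6 (r = 0.95 for each), and Sh3bgr, Smarcd3, and Chfr for Igfbp7 (r = 0.99, 0.97, and 0.97). By rank correlation, 4 of the members kept at least 1 of these 3 genes among their closest 3.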

How the data were processed

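RNA was extracted with the RNeasy Micro kit from AECs of 2 genotypes on 4 days, 1 library per genotype, day, and batch. The deposited values are whole-number counts per Ensembl gene, not normalized. The submitters' processing notes name cutadapt 2.3, STAR 2.7.8a, RSEM 1.3.3, and GRCm38 with no role or order, so that the counts may be rounded estimates, and reads shared by overlapping or similar genes may have been split. Of 55426 entries, 5 reporter entries were left out. Gene symbols were found for 55154 identifiers.

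Counts were filtered with filterByExpr (minimum count 10, minimum total 15), scaled by TMM, and fitted in edgeR 4.0.16 (R 4.3.3) with 8 group means over 24 libraries. The quasi-likelihood F test was adjusted by Benjamini and Hochberg over 18046 genes, with a threshold of 0.05, and the two-sided intervals use the same fit. The study names t tests for single genes in its legends, and edgeR was used here because the values are counts. CPM were computed from all gene counts and TMM factors, and log2 CPM with a prior count of 2. CPM per kb used the union of GENCODE M21 exons. The procedure was tested on simulated counts. No pair of libraries held identical counts.

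The members, the pathway list, and the marker lists (AEC1, AEC2, epithelial, club and ciliated, fibroblast, pericyte and smooth muscle, endothelial, macrophage, mesothelial, and lymphocyte) were chosen with earlier results of these data known. All 6 members and all tested genes of the pathway list could be named, and the most alike genes are the 3 highest by Pearson's r. Same-numbered libraries share a batch in the labels and were therefore treated as paired in an alternative fit. Their deviations from the group means correlated at -0.0345 to 0.548. The labels call the numbers biological replicates and do not say what a batch shares or whether animals were pooled, so that p-values measure the spread between batches. Alternatives were DESeq2 1.42.0 size factors or test, library totals, no filter, batch as a block, the compared groups alone, and each batch left out. Promoters are RefSeq's and coding sequence is from GENCODE M21 transcripts.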

Additional observations from a re-analysis of the deposited data

Results flagged for a closer look

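Igfbp5 moved in opposite directions between days 1 and 3 in the 2 genotypes. It was higher on day 3 in 3 of 3 batches of Krt8+/+ cells (log2 0.46, edgeR adjusted p = 0.467) and lower in 3 of 3 batches of Krt8-/- cells (log2 -0.47, edgeR adjusted p = 0.471). The log2 difference between these changes, Krt8-/- minus Krt8+/+, was -0.93. This difference itself was not tested, neither change passed 0.05, and the interaction of genotype and day over all 4 days gave an adjusted p of 1 for Igfbp5. The item came from a search of every member over the tested pairs of days for opposite directions in all 3 batches. It was the only one found, and how many such finds would arise with no difference was not computed.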

How the results depend on the processing

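Scaling by library totals raised the median log2 difference of all genes against day 0 by 0.46, 0.60, and 0.45 on days 1, 3, and 7 in Krt8+/+ cells and by 0.48, 0.56, and 0.43 in Krt8-/- cells. The share of calls that were higher went from 47.9%, 48.4%, and 48.6% to 69.7%, 74.7%, and 66.3% in Krt8+/+ cells and from 46.9%, 48.8%, and 48.9% to 71.8%, 73.8%, and 65.7% in Krt8-/- cells. Between days 1 and 3 it went from 54.9% to 69% and, in Krt8-/- cells, from 56.9% to 64.9%, and between days 3 and 7 from 47.3% to 24.6% and from 41.7% to 23.9%. With library totals the fall of Igfbp2 on day 3 was lost in both genotypes (log2 -0.71, adjusted p = 0.243, and log2 -1.05, adjusted p = 0.0745).

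Leaving out 1 batch at a time, the number of members called was 3 to 6 (day 1) and 3 to 5 (day 3) against day 0 in Krt8+/+ cells, and 1 to 3 in Krt8+/+ and 1 to 4 in Krt8-/- cells between days 3 and 7, the lowest counts coming without batch 2 and, between days 3 and 7, also without batch 1. Of 48 called differences of single members between days, 29 stayed called without each batch, and of the 33 against day 0, 23 did. These fits have fewer libraries. With the longest transcript as length, the Igfbp7 share on day 7 was 82.0% and 81.9%.

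No difference that changed sign had passed 0.05. Igfbp4 between genotypes on day 7 was 0.01 and became -0.0046 with DESeq2's size factors, -0.0054 with library totals, and -0.0040 with the DESeq2 test. Leaving out 1 batch gave, between genotypes on day 0, -0.86 to 0.50 (Igfbp3), -0.25 to 0.066 (Igfbp4), -0.040 to 0.20 (Igfbp5), and -0.075 to 0.17 (Igfbp7). On day 1 it gave -0.47 to 0.50 (Igfbp3), -0.70 to 0.017 (Igfbp4), and -0.16 to 0.051 (Igfbp7), and on day 3 -0.73 to 0.34 (Igfbp4). On day 7 it gave -0.00013 to 0.48 (Igfbp2), -0.28 to 0.077 (Igfbp3), -0.22 to 0.25 (Igfbp4), and -0.54 to 0.15 (Igfbp6). Between days 3 and 7, Igfbp6 was -0.31 to 0.21 in Krt8+/+ and -0.62 to 0.72 in Krt8-/- cells, and Igfbp4 on day 3 against day 0 was -0.017 to 1.02 in Krt8-/- cells.

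The replicate block, with batch as the pair, lost the call of Igfbp2 on day 3 (adjusted p = 0.0526) and added that of Igfbp6 on day 1 (log2 -0.96, adjusted p = 0.0327), both in Krt8+/+ cells, and changed no other call of a member. With the compared groups alone, the fall of Igfbp2 on day 3 in Krt8+/+ cells (adjusted p = 0.0526) and that of Igfbp5 between days 3 and 7 in Krt8-/- cells (adjusted p = 0.0510) were lost. The interaction was not fitted on compared groups alone, since it uses all 8. The cause of these changes was not tested. Depth was lowest for Igfbp2 on day 1 (63 and 88 counts per group) and Igfbp5 on day 7 (76 and 119).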
